A study of Mus musculus with 2 samples.

Results

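The cytosolic ribosomal protein genes of the mouse abdominal aorta were described in a model of Kawasaki disease vasculitis. Members were taken by name: every listed gene whose symbol begins with Rpl or Rps and a digit, with Rplp0, Rplp1, Rplp2 and Rpsa, and without pseudogenes marked -ps and the Rps6k kinases. The rule gave 87 of 27998 listed genes, 53 named for the large and 34 for the small subunit. It left out 16 pseudogenes and 10 kinases. The choice used names alone, so every level below was free to vary, and all 87 members lie on annotated genes (GENCODE vM21, 19 chromosomes, 4 of them on X) and had at least 1 unique molecular identifier (UMI, a tag that marks 1 captured transcript).

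The study profiled single cells of the abdominal aorta from wild-type C57BL/6J mice that had received LCWE, a cell wall extract of Lactobacillus casei, or phosphate-buffered saline (PBS) in the peritoneum 2 weeks before. LCWE causes arterial inflammation in mice and is used to model Kawasaki disease, a childhood vasculitis. The LCWE library came from 1 pool of 7 aortas and the PBS library from 1 pool of 9, dissociated with enzymes and cleared of dead cells. With 1 library per group there was no replicate and no test could be made. The brackets after values hold 95% intervals that cover counting error only, not the spread between mice.

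Ribosomal proteins are the structural parts of the ribosome, and each of the standard ones is made in about equal number. Their mRNAs are among the most abundant in a cell, and many start with a cytosine followed by a run of pyrimidines, the terminal oligopyrimidine (TOP) motif, through which growth signals tune their translation. Resting naive lymphocytes are known for a large share of ribosomal protein mRNA in droplet data, and mature granulocytes for little RNA of this kind.

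The start of the transcript is shown for members on which the results turn. Each line holds 15 bases before the start annotated by RefSeq and the 15 bases from it onward, on the gene's strand of GRCm38.p6. Capitals mark the longest run of C and T that touched the 5 bases on either side of that start, as far as it is printed. Rps27 and Rps27l are shown because their ratio differed most between cell types. Rpl7l1 and Rps19bp1 are shown because they did not follow the other members. Rpl22l1, Rps9, Rpl13a and Rps15a are shown because they were named by the results below.
Rps27, chr3:90213634-90213663, minus strand: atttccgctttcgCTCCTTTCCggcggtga
Rps27l, chr9:66946071-66946100, plus strand: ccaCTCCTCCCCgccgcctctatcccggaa
Rpl7l1, chr17:46782642-46782671, minus strand: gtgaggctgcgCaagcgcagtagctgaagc
Rps19bp1, chr15:80264292-80264321, minus strand: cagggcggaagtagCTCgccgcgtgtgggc
Rpl22l1, chr3:28805493-28805522, plus strand: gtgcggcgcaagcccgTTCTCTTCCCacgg
Rps9, chr7:3704026-3704055, plus strand: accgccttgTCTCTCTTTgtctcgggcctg
Rpl13a, chr7:45128731-45128760, minus strand: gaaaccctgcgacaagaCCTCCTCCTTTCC
Rps15a, chr7:118116133-118116162, minus strand: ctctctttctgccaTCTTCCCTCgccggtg

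A pyrimidine run of 6 or more bases touched the start in 33 of 66 members with an entry in the RefSeq table, 50% of them, against 24% of the 27025 genes of the table. Runs of 8 or more were found in 36.4% of these members and 11.4% of all genes. The run was 14 bases long in Rpl13a and 9 in Rps27, but 3 bases in Rps19bp1 and 1 base in Rpl7l1. It was also 9 bases long at the printed start of Rps27l, which did not follow the other members either. Members that did follow them had short runs too, such as 1 base in Rpl10 and Rps3a1 and 2 bases in Rps12 and Rpl23. A link between run and level was not tested. Motifs were sought on either strand of 300-base windows, from 250 bases before to 50 after the start. A gene with several annotated starts counted if any of them matched, here and for the runs above. CCGGAAG, the core letters of an ETS-type motif, was present for 39.4% of these members and 9.93% of all genes. TATAAA was present for 10.6% and 15.7%. A match is a match of letters and does not show that a factor binds there.

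The libraries held 5091 LCWE cells with 42275754 UMIs and 5386 PBS cells with 62600808 UMIs, and 8 cell barcodes occurred in both. The cells carried the authors' names, 9 broad and 25 fine classes, and classes of at least 50 cells were described. Marker sums are given for a part of the broad classes. The summed smooth muscle markers were at 47220 counts per 1000000 UMIs of the class (CPM) in PBS smooth muscle cells. The granulocyte markers were at 124173 CPM in LCWE granulocytes. These sums do not bear on the names of the fine classes. Both libraries held enough cells for 4 broad classes: smooth muscle cells, fibroblasts, endothelial cells, and the class of T, NK and innate lymphoid cells, called T and NK cells here.

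Over all cells, ribosomal protein UMIs made up 20.1% (20.1 to 20.1) of the LCWE library and 10.6% (10.6 to 10.6) of the PBS library. Single cells ranged from 1.496% to 57.5% in the LCWE library and from 1.75% to 52.6% in the PBS library. Most PBS cells were smooth muscle cells and most LCWE cells leukocytes, so the share was next taken within classes.

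In the LCWE library, lymphocytes held the largest ribosomal protein shares and granulocytes the smallest. Naive CD8 T cells had a median of 45.5% per cell (quartiles 41.6 and 48.7, 280 cells). Naive CD4 T cells had 40.2%, the CD8 class between naive and activated 38.5%, and the class named NKT 32.7%. Activated CD8 T cells were lower, at 25.3% (quartiles 22.6 and 30.04), as were NK cells at 25.7%, regulatory and activated CD4 T cells at 22.7%, proliferating T cells at 22.3% and γδ T cells at 21.8%. B cells, at 26.7%, lay between NK cells and the NKT class.

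Myeloid antigen-presenting cells and stromal cells lay in the middle of the order. The medians were 20.03% in the dendritic class DC2, 18.9% in the monocyte class Mono1, 17.6% in the macrophage class Mac1 and 14.6% in the dendritic class DC3. The authors' class between smooth muscle cell and fibroblast, present in the LCWE library alone, had 15.03%, and LCWE fibroblasts 14.9%. Blood and lymphatic endothelial cells had 14.1% and 12.7%, and smooth muscle cells 10.0%. The quartiles of neighbours in this order overlapped throughout, while naive CD8 T cells and activated CD8 T cells had quartiles that did not.

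**Figure D1:**
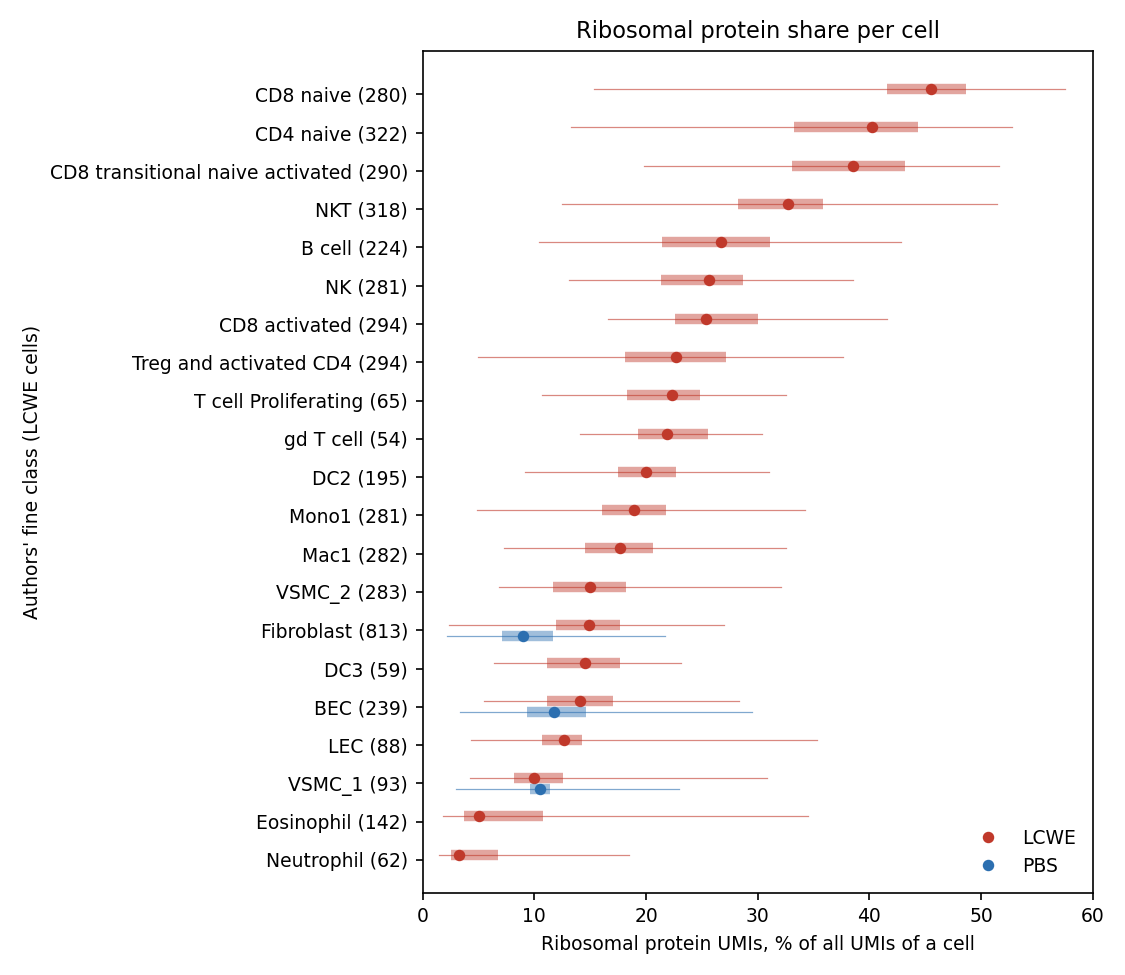
Share of a cell's UMIs in ribosomal protein genes (x axis, %) for fine classes of at least 50 cells in a library (y axis, with the number of LCWE cells). Points are medians over cells, thick bars quartiles and thin lines the full range. Medians ran from 3.28% in LCWE neutrophils to 45.5% in LCWE naive CD8 T cells, and PBS fibroblasts, at 9.00%, lay below LCWE fibroblasts, at 14.9%.

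Eosinophils and neutrophils had medians of 5.04% (142 cells) and 3.28% (62 cells). A typical granulocyte therefore held few such transcripts: the median was 183.5 ribosomal protein UMIs per cell, against 1291.5 in the T and NK class, although the median total was higher in granulocytes, 4668 against 3986 UMIs. The pooled shares were above the cell medians, 8.94% in eosinophils and 6.82% in neutrophils, and single eosinophils reached 34.5%. Of the eosinophils, 78 cells were under 6%, 34 between 6% and 12%, and 30 at 12% or more. Their deposited doublet scores had medians of 0.0102, 0.0603 and 0.140 and their mitochondrial shares 0.546%, 1.47% and 3.15%. Of the neutrophils, 45 were under 6%, 8 between 6% and 12%, and 9 at 12% or more, with median doublet scores of 0.0399, 0.140 and 0.192. The part of doublets and of free RNA in these values was not tested.

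Depth differed between cells of a class, and the share moved with it. Spearman's rho between share and total UMIs over the cells of 1 class was 0.618 in naive CD8 T cells (280 cells), 0.458 in LCWE endothelial cells (327 cells) and 0.262 in LCWE fibroblasts (813 cells). It was negative in LCWE smooth muscle cells, at -0.331 (93 cells). Each total contains the member UMIs, so share and total are linked by construction. Among cells with 4000 to 8000 UMIs, the T and NK class was at 36.7% and granulocytes at 5.90%, a ratio of 6.22 against 4.04 (4.01 to 4.06) over all cells.

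The CPM of single members was next compared between pairs of LCWE classes. These contrasts were chosen after the shares were seen. Between naive and activated CD8 T cells, nearly all members were higher in naive cells. Of 82 members measured (at least 50 UMIs in both classes together), 62 were higher by 1.5-fold or more in naive cells and 1 was lower, while over all genes 6.26% were that much higher and 45.9% lower. The median log2 ratio was 0.71 for members and -0.52 for all genes measured. Rps20, a protein of the small-subunit head, was at 10275 CPM in naive and 4321 CPM in activated cells, 2.38-fold (2.31 to 2.45). Rps19, whose loss causes Diamond-Blackfan anaemia in people, was at 9020 and 4120 CPM, 2.19-fold (2.12 to 2.26). Rps27l was the member on the other side, with 41.1 CPM (53 UMIs) in naive and 129 CPM (181 UMIs) in activated cells, a ratio of 0.318 (0.229 to 0.433).

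Between neutrophils and the monocyte class Mono1, 84 of 84 measured members were at least 1.5-fold lower in neutrophils, against 49.5% of all genes, with a median log2 ratio of -1.50 for members and -0.57 for all genes. Single members ran from -2.08 (Rpl36al, 226 against 952 CPM) to -1.01 (Rps19bp1, 12.7 against 25.7 CPM, on 7 and 55 UMIs). Between the transitional class and LCWE fibroblasts, 1 of 84 members was at least 1.5-fold higher in the transitional class, Rps19bp1, and 0 were lower, against 15.4% and 22.7% of all genes. The median log2 ratio there was 0.08.

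Of the 4 broad classes that met the minimum of 50 cells on both sides, fibroblasts had the largest difference in the ribosomal protein share. Their share was 15.2% (15.2 to 15.2; 813 cells) in the LCWE library and 9.96% (9.94 to 9.98; 868 cells) in the PBS library, a ratio of 1.53 (1.52 to 1.53). The median cell held 14.9% and 9.00%, and the quartiles, 11.9 to 17.7 and 7.13 to 11.7, did not overlap. A median LCWE fibroblast held 1643 ribosomal protein UMIs and a median PBS fibroblast 565. The mean of all other UMIs per cell was 10412 and 6312, and these means are not directly comparable with the medians. By the pooled shares, the summed members differed by more than the rest of the captured RNA.

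The difference ran through both subunits. Of 84 members measured in fibroblasts, 47 were at least 1.5-fold higher in the LCWE library and 0 were lower, against 16.2% higher and 12.7% lower of all 10893 genes measured. All 84 lay above a ratio of 1, and for 81 the counting interval excluded 1. The median log2 ratio was 0.58 for 50 large-subunit members and 0.68 for 34 small-subunit members, against 0.04 for all genes. At a threshold of 2-fold, 1 member was higher and 0 were lower, against 8.04% and 5.99% of all genes, so the shift was broad and of moderate size.

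Rps15, a protein of the small-subunit head, had the highest ratio in fibroblasts: 1043 CPM in LCWE and 473 CPM in PBS cells, 2.20-fold (2.11 to 2.30). Rpl17, a protein at the exit of the peptide tunnel, was at 1367 and 685 CPM, 2.00-fold (1.93 to 2.07). Rpl13a, which has the 14-base pyrimidine run above and also serves in a complex that silences inflammatory mRNAs, was at 1382 and 694 CPM, 1.99-fold (1.92 to 2.06). The lowest ratios belonged to members that are copies or minor forms. Rps27l was at 361 and 331 CPM, 1.09-fold (1.03 to 1.15). Rpl6l, annotated as a processed pseudogene by GENCODE though its symbol meets the rule, was at 20.5 and 18.6 CPM, 1.11-fold (0.874 to 1.40). Rpl22l1 was at 848 and 748 CPM, 1.13-fold (1.09 to 1.18).

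Members with the most UMIs included Rpl41, Rplp1, Rps24, Rpl23, Rpl13, Rps3a1, Rpl39, Rps20 and Rpl37a. In fibroblasts, the ratios of those named here ran from 1.44 in Rps3a1 (3339 against 2325 CPM) to 1.98 in Rpl37a (3163 against 1596 CPM). Rpl41, which codes for the smallest ribosomal protein, was at 4839 and 3336 CPM, 1.45-fold. Rplp1, a protein of the stalk that recruits elongation factors, was at 4271 and 2379 CPM, 1.80-fold.

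**Figure D2:**
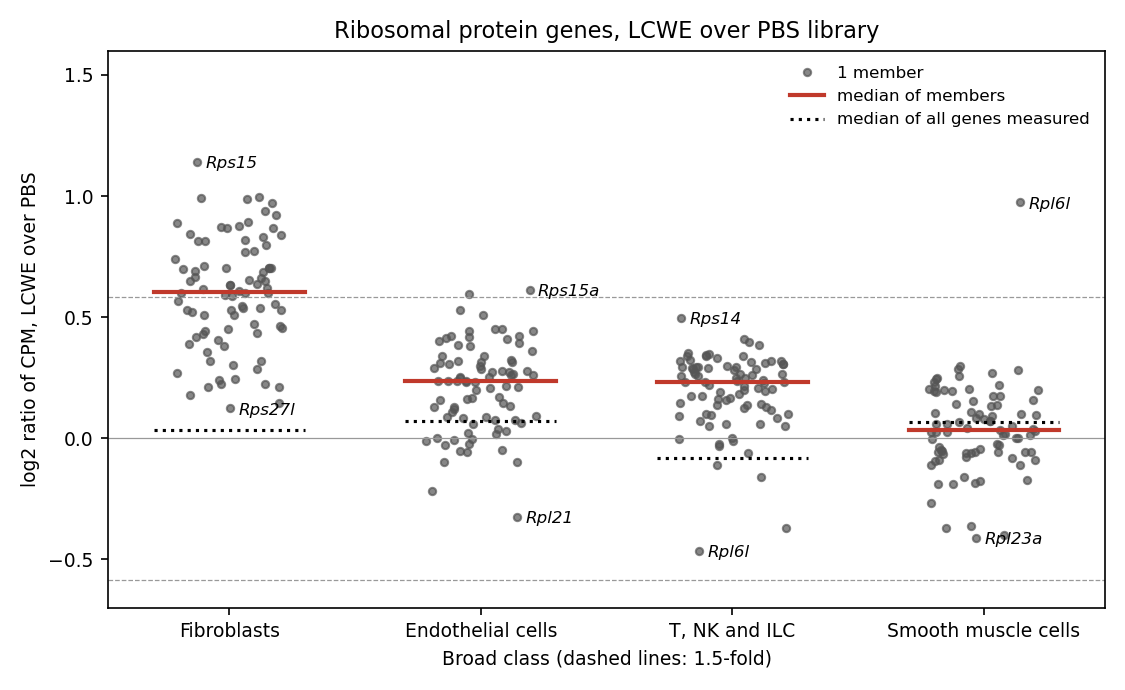
Log2 ratio of CPM, LCWE over PBS (y axis), for each of 84 measured ribosomal protein genes in 4 broad classes (x axis). Red bars are the medians of the members, dotted bars the medians of all genes measured and dashed lines 1.5-fold. All 84 points lie above 0 in fibroblasts, where the median is 0.61, and the points of smooth muscle cells lie around 0, with a median of 0.03.

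Other measures moved with the fibroblast difference, and their part in it was not tested. LCWE fibroblasts were deeper, with a median of 11494 against 6215 UMIs. Within ranges of depth the LCWE share stayed above the PBS share: 13.3% against 8.74% under 4000 UMIs, 13% against 9.75% from 4000 to 8000, 15.01% against 10.4% from 8000 to 16000, and 15.9% against 9.75% (21 PBS cells) above. In cells with 4000 to 8000 UMIs the ratio was 1.33 and 19 members were at least 1.5-fold higher, so the size of the difference and the count fell while the direction did not change. LCWE fibroblasts with at least 1 UMI of Chl1, a cell adhesion gene, were at 15.8% (481 cells) and those without at 13.9% (332 cells). Without the former, the ratio to PBS was 1.39 and 24 members were at least 1.5-fold higher.

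**Figure D3:**
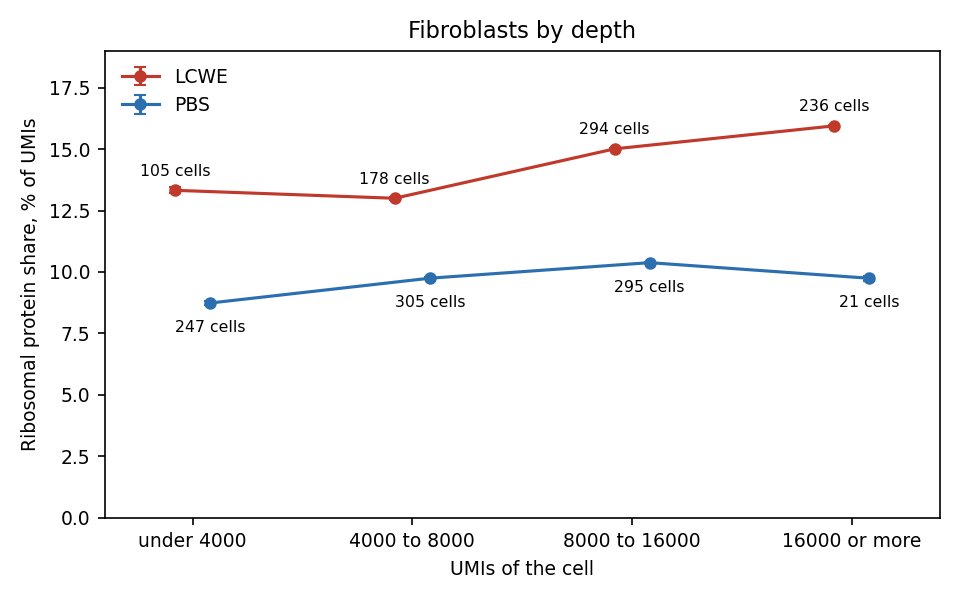
Pooled ribosomal protein share (y axis, % of UMIs) in LCWE and PBS fibroblasts, by the total UMIs of the cell (x axis). Error bars, mostly hidden by the points, are exact 95% counting intervals. LCWE points lie between 13% and 15.9% and PBS points between 8.74% and 10.4%.

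The summed fibroblast markers were at 40936 CPM in LCWE and 62049 CPM in PBS fibroblasts. A list of 13 immediate early and heat shock genes, a kind that enzyme digestion can induce, was at 12258 and 22247 CPM. Markers of other cells were higher in LCWE than in PBS fibroblasts for granulocytes (364 against 2.96 CPM), monocytes and macrophages (293 against 23.2 CPM) and red cells (1116 against 55.6 CPM). Smooth muscle markers were lower (80.2 against 517 CPM).

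Endothelial cells showed a smaller difference of the same sign. Their share was 15.01% (14.98 to 15.05; 327 cells) in LCWE and 12.96% (12.91 to 13.01; 246 cells) in PBS cells, a ratio of 1.16 (1.15 to 1.16), and 1.19 in blood endothelial cells alone. The quartiles of single cells overlapped, 11.0 to 16.5 and 9.40 to 14.5. Of 84 members, 2 were higher by 1.5-fold or more, against 15.9% of all genes, and 0 were lower, against 11.5%. At 2-fold, 0 were higher and 0 lower, against 7.57% and 4.65%. The median log2 ratio was 0.24, against 0.07 for all genes. Those 2 were Rps15a, at 2478 and 1621 CPM (1.53-fold, 1.47 to 1.59), and Rpsa, also known as the laminin receptor, at 2298 and 1523 CPM (1.51-fold, 1.45 to 1.57). Rplp0, the base of the ribosomal stalk, followed at 2155 and 1492 CPM, 1.44-fold (1.38 to 1.51).

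In endothelial cells, 72 of 84 members had a ratio above 1 and 12 a ratio below 1, of which 2, Rpl21 and Rps28, had counting intervals wholly below 1; Rps28 was named after its values were seen. Rpl21 was at 1719 and 2155 CPM, a ratio of 0.798 (0.768 to 0.829), while it was higher in LCWE fibroblasts. Rps28, a small-subunit protein, was at 853 and 914 CPM, a ratio of 0.933 (0.882 to 0.989). Rpl7l1 had a ratio of 0.861 (0.689 to 1.08) and Rpl23a, which binds nascent-chain factors at the tunnel exit, of 0.933 (0.861 to 1.01), both with intervals that include 1. LCWE endothelial cells were also deeper (median 9201 against 6284 UMIs), and between 4000 and 8000 UMIs the shares were 13.1% and 11.9%.

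In T and NK cells the share was 32.3% (32.2 to 32.3; 2198 cells) in LCWE and 27.4% (27.3 to 27.5; 75 cells) in PBS, a ratio of 1.18 (1.17 to 1.18). The mixture of fine classes differed between the libraries: naive CD8 T cells were 280 of the LCWE and 1 of the PBS cells. With the LCWE fine classes weighted as in the PBS library, an alternative chosen after seeing the data, the ratio was 1.06. Of 84 members, 0 differed by 1.5-fold or more in either direction, against 11.8% of all genes that were higher and 15.9% that were lower (3.88% and 5.28% at 2-fold), and the median log2 ratio was 0.23 against -0.08. The highest ratios were those of Rps14 (4653 and 3298 CPM, 1.41-fold, 1.34 to 1.49), Rpl18 (4417 and 3326 CPM, 1.33-fold) and Rps9 (4495 and 3414 CPM, 1.32-fold). The lowest were those of Rpl6l (25 PBS UMIs, 0.725, 0.485 to 1.13), Rpl15 (568 and 735 CPM, 0.773, 0.688 to 0.871) and Rpl7l1 (12 PBS UMIs, 0.894, 0.504 to 1.75).

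Smooth muscle cells had nearly equal shares, 10.8% (10.7 to 10.8; 93 cells) in LCWE and 10.5% (10.5 to 10.5; 4141 cells) in PBS, a ratio of 1.03 (1.02 to 1.03). The median cell went the other way, 10.0% against 10.5%, so the data give no settled direction. Within the LCWE class the share was 17.7% in the 15 cells under 4000 UMIs and 9.34% in the 48 cells from 8000 to 16000 UMIs, while PBS cells stayed between 10.4% and 11.0% at every depth. Of 84 members, 1 was at least 1.5-fold higher, Rpl6l on 27 LCWE UMIs, against 22.7% of all genes, and 0 were lower, against 11.2%. At 2-fold, 0 were higher and 0 lower, against 13.3% and 3.92%. Rps13 (1171 and 951 CPM, 1.23-fold, 1.16 to 1.31) and Rps27l (400 and 328 CPM, 1.22-fold, 1.09 to 1.36) were next. Rpl23a (303 and 403 CPM, 0.753, 0.664 to 0.849), Rpl15 (240 and 317 CPM, 0.759, 0.659 to 0.869) and Rpl27 (222 and 287 CPM, 0.774, 0.669 to 0.892) were lowest. Very small sums were raised to a floor, and the LCWE class held far fewer UMIs than the PBS class. A gene measured on PBS UMIs alone could therefore count as higher, and a rare gene could hardly count as lower. The percentages of all genes given for this class are thus no fair background for abundant members.

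Proliferating stromal cells were under the minimum of 50 cells in both libraries. Their shares were 16.4% in 41 LCWE cells and 9.54% in 15 PBS cells, a ratio of 1.72 (1.69 to 1.74), above that of fibroblasts but on few cells. Other classes were under the minimum in the PBS library alone. Their ratios were 1.17 in B cells (17 PBS cells), 1.17 in monocytes, macrophages and dendritic cells (18) and 1.24 in granulocytes (6).

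The make-up of the ribosomal protein mRNA varied less between cell types than the CPM of its members did. Across the 8 LCWE broad classes of at least 50 cells, 84 of 84 measured members had a CPM at least 2-fold higher in the highest than in the lowest class, against 92.4% of all genes. That share is close to the background and follows from the totals above: 76 members were highest in the T and NK class and 78 lowest in granulocytes. As a share of the summed member UMIs of each class, 6 of 82 members with at least 50 UMIs in their highest class ranged at least 2-fold. At 1.5-fold it was 32 of 82. The median range was 1.42-fold, against 4.10-fold in CPM. Ranges within the member UMIs have no counterpart over all genes. Across the 21 fine classes, 83 of 83 measured members ranged at least 2-fold in CPM, against 98.1% of all genes. Within the member UMIs, 13 of 81 ranged at least 2-fold and 47 of 81 at least 1.5-fold, with a median of 1.56-fold.

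Rps27l ranged most. It codes for a near-copy of Rps27 and is known as a p53 target. It held 0.764% of member UMIs in DC3 cells (528 UMIs, 1176 CPM) and 0.00903% in naive CD8 T cells (53 UMIs, 41.1 CPM), an 84.6-fold range. Of the transcripts of Rps27l and Rps27 together, Rps27l made up 34.6% (32.2 to 37.0) in DC3 cells, 22.9% (20.8 to 25.1) in LCWE smooth muscle cells, 19.8% in Mac1 cells, 2.72% (2.34 to 3.13) in activated and 0.497% (0.373 to 0.650) in naive CD8 T cells. Proliferating T cells, at 17.4% (15.9 to 18.9), stood apart from the other T cell classes, which lay between 0.497% and 6.24%. In DC3 against DC2 cells, Rps27l was 2.73-fold (2.44 to 3.05) higher and was the 1 member at least 1.5-fold higher, while 24 members were at least 1.5-fold lower. Of all genes, 17.5% and 29.5% were so. In fibroblasts the percentage was 16.7% (16.2 to 17.2) in LCWE and 22.2% (21.3 to 23.0) in PBS cells, where Rps27 was at 1803 and 1163 CPM and Rps27l at 361 and 331 CPM.

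**Figure D4:**
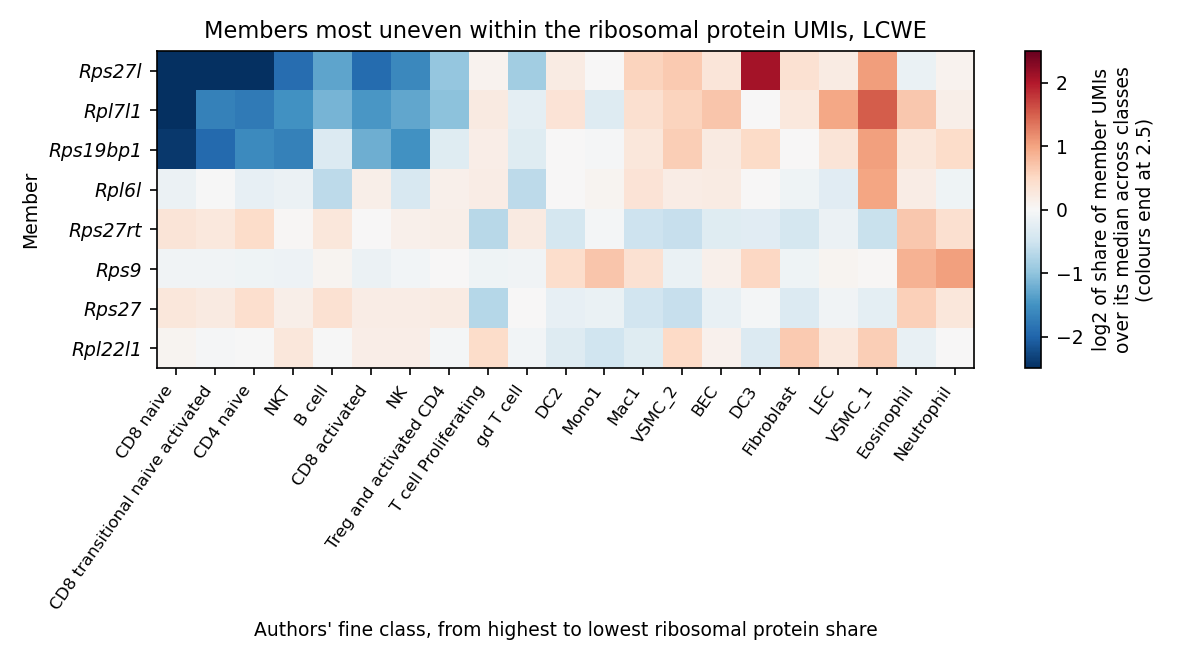
Share of each member in the summed ribosomal protein UMIs of a class, as log2 over its median across classes (colour), for the 8 members with the widest range over broad LCWE classes (y axis) in 21 fine LCWE classes ordered by total ribosomal protein share (x axis). Rps27l, Rpl7l1 and Rps19bp1 are low in the naive T cell classes on the left, and Rps27l is highest in DC3, at 0.764% of member UMIs.

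Rpl7l1, a nucleolar relative of Rpl7 that acts in ribosome assembly, and Rps19bp1, which is named for binding RPS19 and is not a ribosome subunit, shared this direction. Rpl7l1 held 0.0617% of member UMIs in LCWE smooth muscle cells (58 UMIs) and 0.00273% in naive CD8 T cells (16 UMIs), 22.6-fold apart. Rps19bp1 held 0.0277% (26 UMIs) and 0.00256% (15 UMIs) in the same classes. In CPM both were far less uneven, 66.4 against 12.4 for Rpl7l1 and 29.8 against 11.6 for Rps19bp1, in the class where the other members were highest.

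Among the full-length subunits, Rps9 stood out in granulocytes, and Rps27 had its largest share in eosinophils. Rps9, a protein of the small-subunit body, made up 3.03% of member UMIs in neutrophils and 2.73% in eosinophils, against 1.32% in the transitional class. Rps27 made up 2.27% in eosinophils and 0.909% in proliferating T cells. Rps27rt, a retrocopy of Rps27, ranged from 0.0672% to 0.0263% in the same 2 classes and stayed between 2.24% and 3.22% of the UMIs of both genes in all 21 fine classes. Rpl6l held 0.0287% of member UMIs in LCWE smooth muscle cells (27 UMIs) and 0.0092% in γδ T cells (5 UMIs). How the authors' counting divided reads between such near-identical copies is not given in the sources used here, so the level of Rps27rt and of Rpl6l is uncertain.

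Rps19 and Rpl12 were uneven within the leukocytes; they were named after their values were seen. Rps19 held 3.23% of member UMIs in DC3 cells and 1.21% in NK cells. Rpl12, a stalk-base protein, held 1.59% in naive CD4 T cells and 0.647% in Mono1 cells.

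Of the paralog pairs, Rpl22l1 with Rpl22 and Rpl36al with Rpl36a were both well expressed throughout. Rpl22 is an RNA-binding protein of the large subunit known for its role in T cell development, and Rpl22l1 is its close relative. Rpl22l1 made up 43.3% (42.6 to 44.0) of both in LCWE fibroblasts, 48.1% (47.1 to 49.1) in PBS fibroblasts, 40.9% in LCWE and 40.7% in PBS smooth muscle cells, and 24.8% (23.5 to 26.1) in Mono1 cells. Within the member UMIs, Rpl22l1 held 0.557% in LCWE fibroblasts and 0.251% in Mono1 cells. Rpl36al made up 53.1% (51.5 to 54.7) of both in Mono1 cells, 41.1% (39.4 to 42.9) in activated CD8 T cells and 24.7% (23.5 to 26.0) in naive CD8 T cells. Its CPM was 909 and 951 in the activated and naive CD8 cells, and it was Rpl36a that differed, at 1302 and 2895 CPM.

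**Figure D5:**
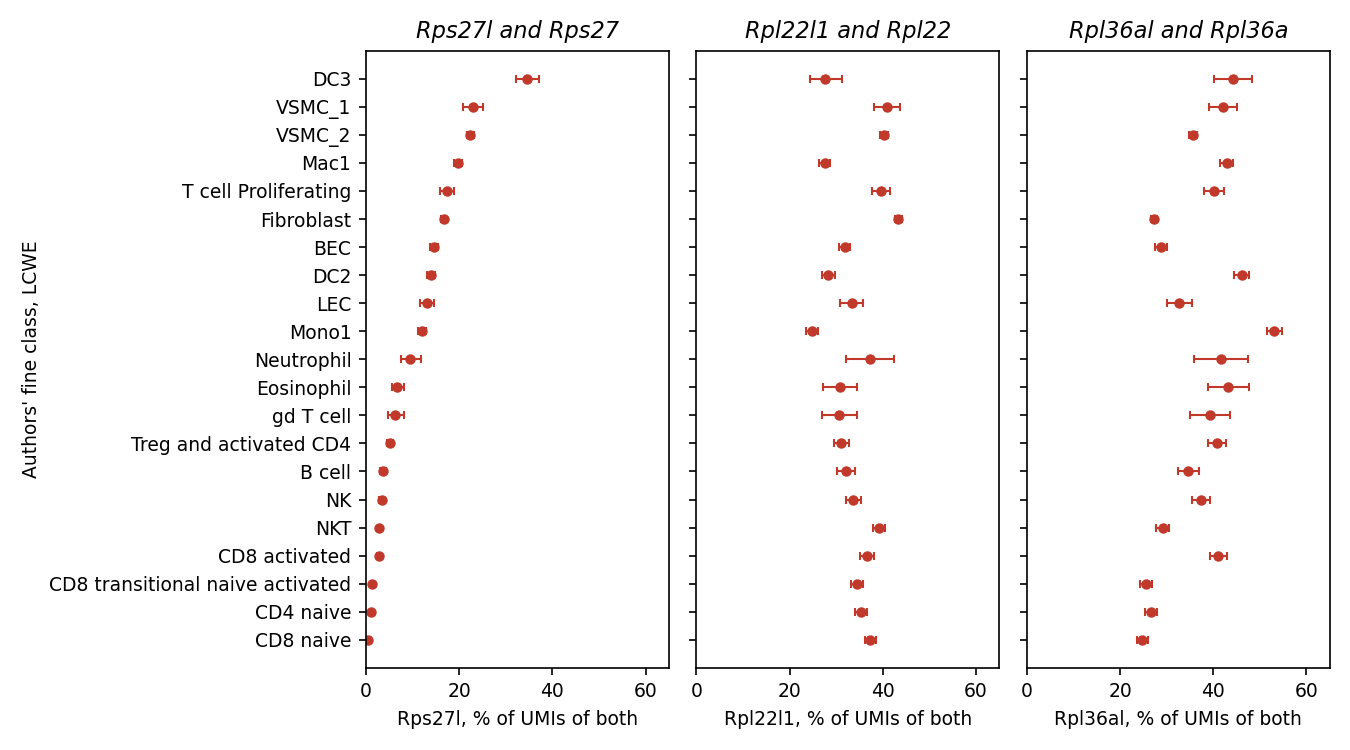
Percentage of the UMIs of 2 paralogs that belong to the first (x axis), for 3 pairs in the LCWE fine classes of at least 50 cells (y axis, ordered by the first pair), with exact 95% counting intervals. Rps27l ranges from 0.497% to 34.6%, Rpl22l1 from 24.8% to 43.3% and Rpl36al from 24.7% to 53.1%.

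The tissue-restricted copies were at or near 0, and of the 87 members they were the 3 that never reached 50 UMIs in a class compared between libraries. Rpl3l, known as the form of striated muscle, had 54 UMIs in all, of which 10 in eosinophils (14.7 CPM), 14 in Mono1 and 8 in Mac1 cells. Rpl39l, known as the form of the testis, had 52, of which 15 in the transitional class and 12 in LCWE blood endothelial cells. Rpl10l, also a testis form, had 1. Rps4l, Rps3a2, Rps3a3 and Rpl26l1 were not among the listed genes under these names, so no level can be given for them. Rpl23a, Rpl35a and Rpl37a carry an a in their names but are standard subunits, and Rpl35a was at 2530 CPM in LCWE and 1864 CPM in PBS fibroblasts, 1.36-fold (1.33 to 1.39).

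The levels of most members varied together over classes, and a small set of other genes varied with them. Over the 12 groups of broad class and library with at least 50 cells, log2 CPM of single members correlated with that of the summed members at a median Pearson r of 0.964, and 74 of 84 were above 0.9. Of 8733 other genes with at least 1000 UMIs, 49 were above 0.9. The groups share libraries, and the members make up the sum, so these values are a description. The lowest were Rpl7l1 at -0.393, Rps27l at -0.298 and Rps19bp1 at 0.0584. Genes outside the family with a similar pattern included Eif3f, at 0.973, Npm1, at 0.971, Gm9493, Nsa2, Gm11808, Gnb2l1, Eef1b2, Rps26-ps1 and Snrpe, at 0.954.

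Related gene lists were set beside all genes measured in fibroblasts, of which 16.2% were higher by 1.5-fold or more and 12.7% lower, with a median log2 ratio of 0.04. Of 19 translation factors and other TOP genes, 4 (21.1%) were higher in LCWE fibroblasts and 0 lower, with a median log2 ratio of 0.40. Gnb2l1, the listed name of Rack1, a scaffold on the small subunit, was at 1096 and 518 CPM, 2.12-fold (2.03 to 2.20), and Eef1b2, an elongation factor subunit, at 978 and 515 CPM, 1.90-fold (1.83 to 1.98). Tpt1, at 6137 and 4561 CPM, was 1.35-fold, Eef1a1 1.22-fold and Fau, which carries the ribosomal protein S30, 1.36-fold.

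Of 30 ribosome biogenesis genes, 5 (16.7%, near the share of all genes) were higher and 1 (3.33%) lower, with a median of 0.19. Npm1 was at 481 and 303 CPM, 1.59-fold, and Ncl at 178 and 174 CPM, 1.03-fold. Of 76 measured mitochondrial ribosomal proteins, 3 (3.95%) were higher and 1 (1.32%) lower, with a median of -0.00. Between T cell classes, the summed mitochondrial ribosomal proteins were at 2556 CPM in naive CD8 T cells and 5959 CPM in proliferating T cells. Of 17 measured regulators of ribosomal protein synthesis, 0 were higher and 1 (5.88%) was lower, Cdkn1a, at 158 and 377 CPM. Of the 13 immediate early and heat shock genes, 0 were higher and 11 (84.6%) lower.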

How the data were processed

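The authors deposited raw UMI counts, made with Cell Ranger 3.0.2 against mm10, per the submitters' processing notes. The handling of reads that match several copies of a gene is not given in the sources used here. The deposited cell table also holds a mitochondrial percent, a doublet score (its caller is not named) and the class names, which were used as given. Every listed cell is marked there as neither dead nor a doublet. The counts of the single libraries equalled those of the deposited joint matrix (0 entries differed).

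For each class and library, UMIs were added up over cells. A share is member UMIs over all UMIs (Clopper-Pearson interval), CPM is per 1000000 UMIs of the class (exact Poisson), and LCWE over PBS ratios carry exact conditional binomial intervals, all at 95%. For log2 ratios, sums under 3 UMIs were raised to 3. Genes with at least 50 UMIs in both groups together counted as measured, and called means at least 1.5-fold. Classes needed 50.0 cells. Shares by class used both libraries, ratios the 4 classes above. Ratios and their intervals were tried on simulated Poisson counts at the depth of the fibroblast class. The simulation drew from the model that the intervals assume and did not cover classes of very unequal depth. Python 3.11.15, numpy 2.4.6, pandas 2.3.3 and scipy 1.17.1 were used.

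Named were the 10 most abundant members, the 8 most uneven with at least 200 UMIs, the 3 highest and 3 lowest ratios per class, the paralogs, the 10 most similar other genes and up to 4 genes of each list. Some genes that this rule names are not reported here. Others are marked as chosen after their values were seen, or are given as the partner of a paralog, and the text gives a part of the list genes. Members, lists and contrasts were chosen with earlier results of these data known. Promoter sequences are RefSeq's (GRCm38.p6), where 66 members were matched, and none is printed from chromosome 18. Alternatives changed the denominator, the cells, the fold, the minimum of UMIs and the class level.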

Additional observations from a re-analysis of the deposited data

Results flagged for a closer look

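Of 84 members measured, 16 had LCWE over PBS ratios on opposite sides of 1, with counting intervals that exclude 1, in different classes of the same 2 libraries, and 15 of them were below 1 in smooth muscle cells. The 6 of these that the rule for named genes covers are given with their values. None of these differences between classes was tested, since each group is 1 library. As log2 ratios, Rpl15 was at 0.24 in endothelial cells and 0.32 in fibroblasts, but -0.37 in T and NK cells and -0.40 in smooth muscle cells. Rpl21 was at 0.53 in fibroblasts and 0.17 in T and NK cells, but -0.33 in endothelium and -0.19 in smooth muscle cells. Rpl23a was at 0.59 in fibroblasts and -0.41 in smooth muscle cells. Rpl27 was at 0.21 in endothelial cells, 0.21 in fibroblasts and -0.37 in smooth muscle cells. Rpl41 was at 0.14, 0.54 and -0.089 in the same order. Rps3a1 was at 0.52 in fibroblasts, 0.14 in T and NK cells and -0.16 in smooth muscle cells. These are CPM ratios, so they include the shift of the summed members of each class. The log2 ratio of that sum was 0.61 for fibroblasts, 0.24 for T and NK cells, 0.21 for endothelium and 0.04 for smooth muscle. Every member value given here lay below the sum of its class, except endothelial Rpl15 (0.24) and Rpl27 (0.21), which were near it. Opposite sides of 1 therefore do not show that a member departed from the other members in opposite directions. In the LCWE library the smooth muscle values rest on 93 cells.

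The 16 rows of ribosomal protein pseudogenes, which stand outside the family, also held UMIs, 11900 in the LCWE and 9184 in the PBS library. Over all cells, Rps26-ps1 was 2.48-fold (2.27 to 2.72) and Rps12-ps3 2.16-fold (2.07 to 2.25) higher in CPM in the LCWE library, where the summed members were at 20.1% against 10.6% of UMIs. Whether these reads come from the pseudogenes or from their parent genes was not tested.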

How the results depend on the processing

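No paired analysis was possible because each group is 1 library. The members' lead of T and NK cells over granulocytes, 4.04-fold, was 4.11 without mitochondrial genes in the denominator, 6.65 from medians of cells, 6.22 in cells of 4000 to 8000 UMIs and 5.26 without the 10% of cells with the highest doublet score. The fibroblast ratio (1.53) was 1.66 from medians, 1.54 in cells of at most 10% mitochondrial UMIs, 1.33 at 4000 to 8000 UMIs, 1.5 without high doublet scores and 1.39 without Chl1-positive cells. The endothelial ratio (1.16) was 1.14 from medians, 1.10 at 4000 to 8000 UMIs, 1.14 without high doublet scores and 1.19 in blood endothelial cells alone. The T and NK ratio (1.18) was 1.24 from medians, 1.10 at 4000 to 8000 UMIs and 1.06 with the fine classes weighted as in the PBS library. The last 2 alternatives of this kind, blood endothelial cells and weighting, were chosen after seeing the data.

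The smooth muscle ratio (1.03) turned to 0.954 from medians and 0.946 without high doublet scores, and was 1.04 without mitochondrial genes, 1.13 in cells of at most 10% mitochondrial UMIs and 1.15 at 4000 to 8000 UMIs, so its direction depends on these choices. The cause was not tested.

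The 47 members higher in LCWE fibroblasts became 1 at 2-fold, 0 as shares of the summed members, 19 at 4000 to 8000 UMIs and 24 without Chl1-positive cells, and 2 were lower with no minimum of UMIs. The 2 higher in endothelial cells became 0 at 2-fold, 0 as shares of the summed members and 0 at 4000 to 8000 UMIs, and 2 were lower with no minimum. In T and NK cells 2 were lower as shares of the summed members and 3 with no minimum. In smooth muscle cells the 1 higher became 0 at 2-fold, 4 with no minimum and 2 at 4000 to 8000 UMIs, where 2 were lower (24 LCWE cells). The members that entered with no minimum, Rpl3l, Rpl39l and Rpl10l, had few or 0 UMIs in these classes. The counts with no minimum therefore depend on the floor for small sums. Of 84 uneven members, 6 were uneven as shares of the summed members. The other 45 values of these ratios and counts stayed within their counting interval or within 1.5 times the count. The shares of single classes were less stable: 55 alternatives fell outside the counting interval and 5 within it. The largest changes were in PBS T and NK cells, from 27.4% to 33.5% at 4000 to 8000 UMIs, and in LCWE granulocytes, from 7.99% to 4.64% from medians. A share is relative: a lower level of other abundant transcripts raises it as a higher level of members does.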
